A study of Homo sapiens with 6 samples.

Results

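The 10 genes described here encode 53BP1, its effectors and the core of non-homologous end joining. They were taken as a list of names, TP53BP1, RIF1, MAD2L2, SHLD1, SHLD2, SHLD3, PRKDC, XRCC5, XRCC6 and LIG4, and were looked up among the 63677 gene identifiers of the deposited count table. All 10 were found, and all 10 passed the filter on low counts (more than 10 counts summed over the samples). The transcripts were measured by RNA-Seq of poly(A) RNA in UWB1.289, a human ovarian cancer cell line that lacks functional BRCA1 according to the study, although its genotype is labelled WT. Cells received 4 µM Olaparib, an inhibitor of the poly(ADP-ribose) polymerase PARP1, or its solvent DMSO for 24 h, with 3 samples in each group. The design text of the series gives 10 µM, and the dose of the sample labels is used here. All samples came from this one line, so the values describe a single BRCA1-deficient background, and there were no cells with BRCA1 restored among the 6 samples.

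A double-strand break can be joined end to end or repaired by homologous recombination, which starts with resection of the ends. 53BP1 binds chromatin next to the break and, through RIF1 and the shieldin complex, holds resection back. In cells without BRCA1, loss of 53BP1, RIF1 or a shieldin subunit lets resection proceed again and is a known route to resistance against PARP inhibitors. Ku and the DNA-dependent protein kinase act on the same ends and hand them to DNA ligase IV. Olaparib was compared with DMSO here to see whether the transcripts of this pathway moved within 24 h of PARP inhibition.

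Libraries held 35360458 to 39640775 counts. Mitochondrial genes took 5.68% to 6.11% of each. Of 8 epithelial and Müllerian markers, 7 were detected, with a summed level of 12538 to 13166 CPM (counts scaled to library size) after Olaparib and 12379 to 12789 after DMSO, and WT1 was at 2 counts or fewer in every sample. Of 10 markers of blood, endothelial and stromal cells, 5 had 3 counts or fewer in every sample (CD3E, PECAM1, COL3A1, PDGFRB and DCN), and the summed level of the 10 was 52.2 to 54.5 CPM after Olaparib and 53.8 to 56.1 after DMSO. Most of that sum was CDH5. In each list 1 gene rose, PAX8 (log2 fold change 0.10, adjusted p = 0.0399) and VWF (log2 fold change 0.68, adjusted p = 0.0106, at 69 counts or fewer in every sample), both by edgeR. Cell cycle genes moved with treatment. Of 54 G2/M genes tested, 17 rose and 0 fell, and of 42 S phase genes, 6 fell and 0 rose (adjusted p under 0.05, edgeR). Over all genes tested, 2.15% rose and 1.21% fell by this threshold. At an unadjusted p under 0.05, 27 G2/M genes were higher and 3 lower, and 13 S phase genes were lower and 0 higher. The share of all genes tested was 14.8%, in either direction. The part of these genes in the values of the pathway was not tested.

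Promoter windows were taken from RefSeq (GRCh38.p14), 250 bases before to 50 bases after a start site. For 6 of the 10 genes, 11 windows were searched. PRKDC was not among these 6, so the counts of letters below do not cover it. Short stretches of 4 of the 6 genes are shown because members with related roles carried the same letters close to the start of transcription. In the first pair the capitals mark CCATCTTG, letters of the motif bound by YY1.

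RIF1: cccagccgCCATCTTGgtctagga
TP53BP1: gaggggagCCATCTTGtccctctc

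The RIF1 stretch lies at chr2:151409899-151409922 on the plus strand, and its capitals begin at base 6 of the transcript. The TP53BP1 stretch lies at chr15:43510591-43510614 on the minus strand, and its capitals begin at base 35. In the second pair the capitals mark GCGCATGC or its reverse complement GCATGCGC, letters of the motif bound by NRF1.

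XRCC6: cagggcccGCGCATGCgtggattg
LIG4: tcttccgaGCATGCGCagaagccg

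The XRCC6 stretch lies at chr22:41621283-41621306 on the plus strand, with the first capital 4 bases before the start site. The LIG4 stretch lies at chr13:108218371-108218394 on the minus strand, with the first capital 37 bases before the start. Both strands were searched. CCATCTTG was present in 2.19% of all 35116 windows and GCGCATGC in 3.05%, and their letters did not overlap in the stretches shown. The commoner letters CCAAT and GGGCGG, searched in the same way, were present in 34.6% and 45.0% of all windows. Of the 11 windows of the 6 genes, 6 held CCAAT and 7 held GGGCGG, from 5 genes each. The letters were chosen after the sequences had been read, so these matches are a description. None of these 4 genes passed the test for a change after Olaparib.

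Of the 10 genes, 1 changed. PRKDC, which encodes the catalytic subunit of the DNA-dependent protein kinase, rose by 11.1% (95% interval 6.28% to 16.2%). No member fell. The other 9 did not pass the threshold, an adjusted p of 0.05 (edgeR quasi-likelihood test, Benjamini-Hochberg adjustment over all 21729 genes tested). Over all genes tested the share past this threshold was 3.36%, and 1 of 10 does not set these genes apart from that share. In bulk RNA, fewer cells with a transcript and less of it per cell cannot be told apart. With a change above 1.2-fold as a further condition, 0 members were called, against 1.21% of all genes tested. At an unadjusted p under 0.05 in edgeR, 1 member was called, against 14.8% of all genes tested. DESeq2 and limma voom each called 1 member at an adjusted p under 0.05. The 10 genes were split evenly, 5 with a positive and 5 with a negative log2 fold change. Their median was -0.00090, beside -0.0042 over all genes tested.

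**Figure D1:**
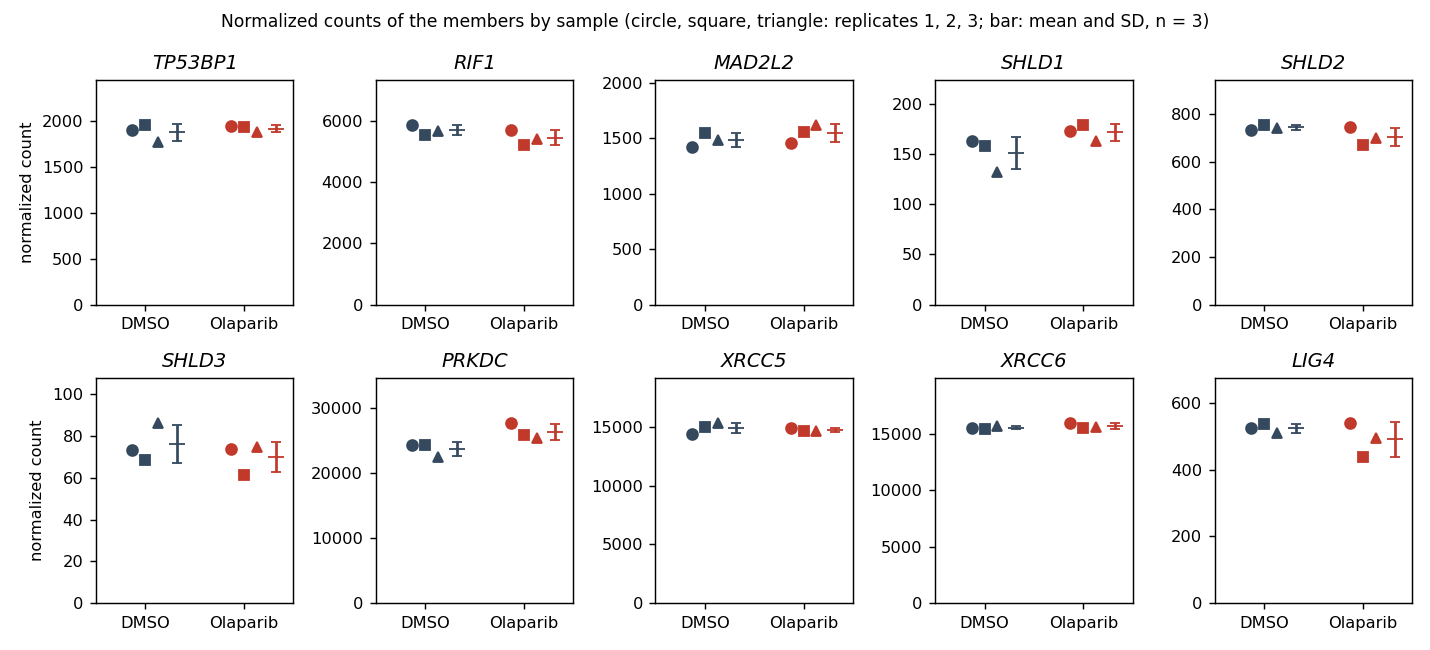
Normalized counts (vertical axis, from 0) of the 10 genes in the 3 DMSO samples (blue) and the 3 Olaparib samples (red), with circles, squares and triangles for replicates 1, 2 and 3 and bars for the mean and SD. PRKDC is the one gene whose Olaparib samples, from 25421 to 27696, all lie above its DMSO samples, from 22468 to 24347.

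The 53BP1 effectors come first in the pathway. TP53BP1 (ENSG00000067369, chromosome 15, 43403061 to 43510728 on GRCh38, minus strand) encodes 53BP1, the reader of damaged chromatin that recruits the others. Its normalized counts, scaled for library size by TMM, were 1943, 1932 and 1879 in the Olaparib samples and 1899, 1961 and 1771 in the DMSO samples. All 3 Olaparib values lay between the lowest and the highest DMSO value. The log2 fold change was 0.032 (SE 0.043, 95% interval -0.056 to 0.12, adjusted p = 0.807, edgeR). Exons of TUBGCP4 on the other strand cover 28.8% of the exonic bases of TP53BP1. The strand setting of the counting is not given in the sources used here, so reads in that stretch could not be assigned with certainty.

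RIF1 (ENSG00000080345, chromosome 2, 151409883 to 151508013, plus strand) encodes the protein that binds phosphorylated 53BP1 and brings in shieldin. The Olaparib samples had normalized counts of 5718, 5231 and 5410, and the DMSO samples 5885, 5557 and 5673. The Olaparib samples covered a lower range, and replicate 1 lay above 2 of the 3 DMSO samples. Its log2 fold change was -0.065 (SE 0.035, 95% interval -0.14 to 0.0052, adjusted p = 0.389, edgeR). RIF1 transcripts outnumbered those of TP53BP1 in every sample, also per length. The within-sample log2 ratio of RIF1 to TP53BP1 counts was 1.51 ± 0.062 after Olaparib and 1.60 ± 0.092 after DMSO (SD, n = 3 each; two-sided exact permutation test, p = 0.3, where 0.1 is the smallest that 3 against 3 allow; adjusted p = 0.4 over the 3 ratios tested).

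Shieldin is the complex of REV7, SHLD1, SHLD2 and SHLD3 that covers the single-stranded end. None of its 4 transcripts changed by the test, at an adjusted or an unadjusted p under 0.05 with edgeR, or at an adjusted p under 0.05 with limma voom, and DESeq2 called none of the 3 for which it gave an adjusted p (it gave none for SHLD3). All 4 had overlapping groups. MAD2L2 (ENSG00000116670, chromosome 1, 11658918 to 11691811, minus strand) encodes REV7, which also serves translesion polymerase zeta. It had normalized counts of 1457, 1558 and 1622 with Olaparib and of 1422, 1545 and 1488 with DMSO. Its log2 fold change was 0.057 (SE 0.046, 95% interval -0.036 to 0.15, adjusted p = 0.621, edgeR). Exons of genes on the other strand, mainly FBXO6, cover 17.2% of its exonic bases.

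SHLD2 (ENSG00000122376, chromosome 10, 87094161 to 87191465, plus strand) encodes the subunit with folds that bind single-stranded DNA. It had normalized counts of 747, 669.8 and 699 with Olaparib and of 735, 756 and 743 with DMSO. Replicates 2 and 3 of Olaparib lay below every DMSO sample, and replicate 1 lay among them. On the log2 scale the change was -0.079 (SE 0.050, 95% interval -0.18 to 0.024, adjusted p = 0.506, edgeR). Its pseudogene copies SHLD2P1, SHLD2P2 and SHLD2P3 held 2, 4 and 16 counts over all 6 samples, against 4352 for SHLD2, and GLUD1 on the other strand shares 10.9% of its exonic bases.

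SHLD1 and SHLD3 were the members with the fewest counts, and their changes were the least well measured. SHLD1 (ENSG00000171984, chromosome 20, 5750393 to 5864395, plus strand), whose product binds the C-terminal part of SHLD2, had normalized counts of 173, 179.5 and 163 with Olaparib and of 163, 158 and 133 with DMSO. The lowest Olaparib and the highest DMSO value differed by less than 1 normalized count. The log2 fold change, the largest in size of the 10, was 0.19 (SE 0.10, 95% interval -0.022 to 0.40, adjusted p = 0.412, edgeR) and was 0.097 without DMSO replicate 3. SHLD3 (ENSG00000253251, chromosome 5, 65625027 to 65630928, plus strand), whose product links REV7 to the rest, had normalized counts of 73.9, 61.5 and 74.6 with Olaparib and of 73.2, 68.6 and 86.3 with DMSO. Its log2 fold change was -0.12 (SE 0.15, 95% interval -0.42 to 0.18, adjusted p = 0.778, edgeR). TRAPPC13, on the same strand, shares 4.60% of the exonic bases of SHLD3. Within samples, the log2 ratio of MAD2L2 to SHLD3 counts was 4.47 ± 0.18 after Olaparib and 4.29 ± 0.19 after DMSO (SD, n = 3 each; two-sided exact permutation test, p = 0.4, adjusted p = 0.4).

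The end-joining core held both the most abundant transcripts and the one change. PRKDC (ENSG00000253729, chromosome 8, 47773111 to 47960178, minus strand) had normalized counts of 27696, 25929.9 and 25421 with Olaparib and of 24347, 24314 and 22468 with DMSO. All 3 Olaparib samples lay above all 3 DMSO samples. PRKDC was the 1 member whose groups did not overlap, against 19.3% of all genes tested in either direction and 10% in this one. The lowest Olaparib value was 25421 and the highest DMSO value 24347. The mean was 26349 ± 1194 after Olaparib and 23709.8 ± 1075 after DMSO (SD, n = 3 each). On the log2 scale this rise was 0.15 (SE 0.032, adjusted p = 0.00319, edgeR).

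The rise of PRKDC rested in part on single samples. Olaparib replicate 1 was the highest and DMSO replicate 3 the lowest of the 6. Leaving out DMSO replicate 3 gave a log2 fold change of 0.11 (adjusted p = 0.0678, edgeR), and leaving out Olaparib replicate 1 gave 0.12 (adjusted p = 0.0260, edgeR). PRKDC had the highest counts of the 10 genes. Among the 639 genes with a mean of at least 10000 counts, 10% passed the same threshold, against 1.18% of the 4395 genes with a mean of 10 to 100. Its representative transcript is 13459 bases long, and the 507 genes with transcripts over 10000 bases and a mean of at least 100 counts had a median log2 fold change of 0.014.

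XRCC5 and XRCC6 encode Ku80 and Ku70, the ring that slides onto a broken end and recruits the kinase. XRCC5 (ENSG00000079246, chromosome 2, 216107464 to 216206303, plus strand) had normalized counts of 14939, 14665 and 14679 with Olaparib and of 14433, 14979.5 and 15335 with DMSO. XRCC6 (ENSG00000196419, chromosome 22, 41621163 to 41664048, plus strand) had 15952, 15522 and 15579.8 after Olaparib and 15527, 15411 and 15682 after DMSO. In both genes the groups overlapped widely. Log2 fold changes were -0.015 for XRCC5 (SE 0.028, 95% interval -0.072 to 0.042, adjusted p = 0.87, edgeR) and 0.013 for XRCC6 (SE 0.027, 95% interval -0.041 to 0.068, adjusted p = 0.88, edgeR). XRCC6 has 5 annotated pseudogene copies, of which XRCC6P2 had the most counts, 91 over all 6 samples. The within-sample log2 ratio of XRCC6 to XRCC5 counts was 0.087 ± 0.0065 after Olaparib and 0.059 ± 0.040 after DMSO (SD, n = 3 each; two-sided exact permutation test, p = 0.4, adjusted p = 0.4).

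LIG4 (ENSG00000174405, chromosome 13, 108207439 to 108218368, minus strand) encodes DNA ligase IV, which seals the joined ends. It had normalized counts of 540.5, 437 and 496 with Olaparib and of 526, 536 and 510.0 with DMSO. Olaparib replicate 1 was the highest of all 6 samples and replicate 2 the lowest, and the 3 DMSO samples lay closer together. On the log2 scale the change was -0.093 (SE 0.062, 95% interval -0.22 to 0.034, adjusted p = 0.533, edgeR).

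**Figure D2:**
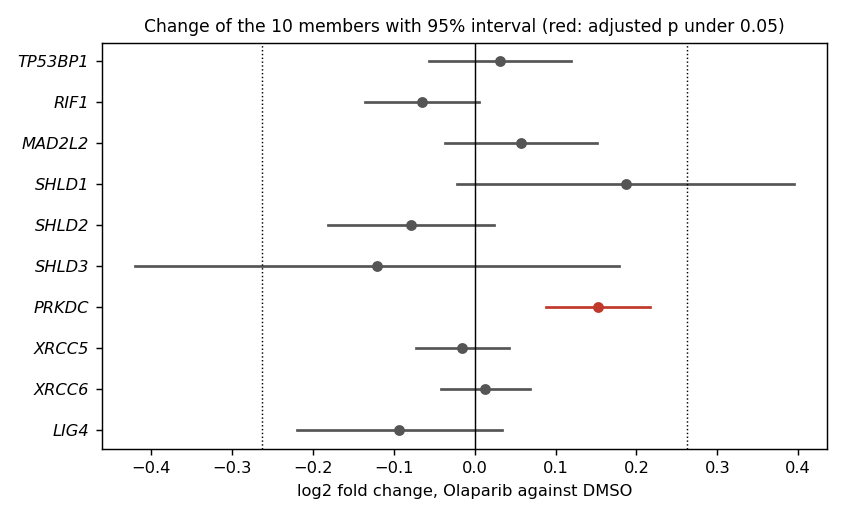
Log2 fold change of Olaparib against DMSO for the 10 genes (horizontal axis), with points for the estimate, bars for the 95% interval and dotted lines at 1.2-fold either way. The intervals of 8 genes lie inside the dotted lines, PRKDC (red) among them, and those of SHLD1 and SHLD3 reach past them.

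The intervals set how large a change could have gone unseen. For 8 of the 10 genes the whole 95% interval lay inside a 1.2-fold change either way, and for SHLD1 and SHLD3 it did not. Standard errors ran from 0.027 for XRCC6 to 0.15 for SHLD3. The intervals cover the spread between these samples of one cell line.

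Levels between genes were compared as CPM per kilobase, with the union of all annotated exons as the length. The Ku subunits led. XRCC6 stood at 126.9 to 131.4 over all 6 samples and XRCC5 at 70.6 to 74.99. PRKDC followed at 20.6 to 25.5. RIF1 (7.69 to 8.65) and MAD2L2 (6.995 to 7.98) overlapped. SHLD2 (4.22 to 4.76) lay just above TP53BP1 (3.65 to 4.04), without overlap. LIG4 (1.64 to 2.03) and SHLD1 (1.62 to 2.19) overlapped, and SHLD3 was the lowest at 0.945 to 1.33. The level of XRCC6 was 128.0 ± 1.12 after DMSO and that of SHLD3 was 1.17 ± 0.14 (SD, n = 3 each), on the scale per kilobase.

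The order depended on the length in places. With the length of the representative transcript, MAD2L2 stood at 36.1 to 41.2 CPM per kilobase, above RIF1 at 9.53 to 10.7, because its representative transcript has 1053 bases and its union of exons 5431. With this length SHLD2 (4.97 to 5.61) and TP53BP1 (4.56 to 5.05) overlapped. The other places in the order were the same. Within shieldin, MAD2L2 was the highest, SHLD2 next, then SHLD1 and SHLD3, with either length and with no overlap between neighbours.

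**Figure D3:**
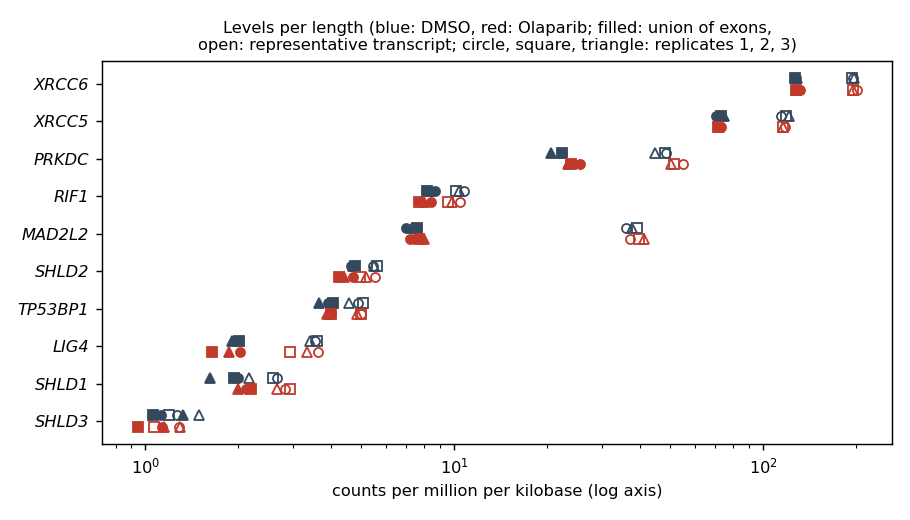
Levels of the 10 genes in each sample as CPM per kilobase (log axis), for DMSO (blue) and Olaparib (red), with filled symbols for the union of exons and open symbols for the representative transcript. XRCC6 and XRCC5 are highest and SHLD3 lowest with both lengths, and MAD2L2 moves furthest between them.

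The other genes of these pathways were taken from 4 lists with 46 genes, of which 43 passed the filter on low counts. By the same threshold in edgeR, 1 of the 43 fell and 0 rose, beside 2.15% higher and 1.21% lower over all genes tested. At an unadjusted p under 0.05, 1 was higher and 6 were lower. Over all genes tested 14.8% passed that threshold, 1702 higher and 1515 lower. Groups did not overlap for 2 of the 43 in the higher and 6 in the lower direction. Over all genes tested this held for 10% and 9.29%. The median log2 fold change of the 43 was -0.013, with 18 positive and 25 negative. Over all genes tested it was -0.0042, with 10564 positive and 11165 negative.

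Among 18 genes that bring 53BP1 to breaks or work with shieldin, 17 were tested and 1 fell. PAXIP1 encodes PTIP, the second effector of 53BP1 beside RIF1. It had normalized counts of 951, 894 and 862 with Olaparib and of 1022, 1028 and 1034 with DMSO. All Olaparib samples lay below all DMSO samples, as they did for 9.29% of all genes tested. Its log2 fold change was -0.19 (SE 0.047, adjusted p = 0.0180, edgeR), and the adjusted p was 0.159 without Olaparib replicate 3, 0.0856 without DMSO replicate 1, 0.0609 without DMSO replicate 2 and 0.0643 without DMSO replicate 3. ATM, the kinase that phosphorylates 53BP1 at breaks, had normalized counts of 1226, 1197 and 1226 with Olaparib and of 1370, 1272 and 1400 with DMSO, with separate groups. Its log2 fold change was -0.15 (SE 0.046, adjusted p = 0.0680, edgeR) and did not pass. TEN1, a subunit of the CST complex that works with shieldin, had 3 counts or fewer in every sample. TEN1-CDK3, annotated on the same strand, covers 75.9% of its exonic bases.

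Among 13 partners in end joining, 11 were tested, and none passed the threshold with edgeR, while 1 (TDP2) had an unadjusted p under 0.05. DESeq2 and limma voom called none of the 11 either. TDP2, an enzyme that frees ends blocked by topoisomerase, had a log2 fold change of -0.12 (SE 0.040, adjusted p = 0.0905, edgeR). All 3 Olaparib samples lay below all 3 DMSO samples, as for 9.29% of all genes tested. POLM, a polymerase that fills gaps during joining, had a log2 fold change of 0.082 (SE 0.063, adjusted p = 0.603, edgeR). DNTT was at 0 counts in all 6 samples. NHEJ1, the gene of the joining factor XLF, had 3 counts or fewer in every sample. A gene without a name on the same strand covers 19.5% of its exonic bases in GENCODE 44, and that identifier is not among those counted. The part of these overlaps in the low counts of NHEJ1 and TEN1 was not tested, and neither gene's level is given here.

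Among 9 genes of end resection, the step that 53BP1 and shieldin hold back, none passed with edgeR or DESeq2, and limma voom called RBBP8. At an unadjusted p under 0.05 in edgeR, 1 was higher and 2 were lower. RBBP8, which encodes the resection factor CtIP, had normalized counts of 2120, 2017 and 2118 with Olaparib and of 2335, 2239 and 2288 with DMSO. Its Olaparib samples all lay below its DMSO samples, as for 9.29% of all genes tested. The log2 fold change of RBBP8 was -0.13 (SE 0.040, adjusted p = 0.0614, edgeR). BRCA1 transcripts were present, with normalized counts of 844, 783 and 778 with Olaparib and of 741, 738 and 729 with DMSO. The 3 Olaparib samples lay above the 3 DMSO samples, as for 10% of all genes tested. The log2 fold change of BRCA1 was 0.12 (SE 0.049, adjusted p = 0.193, edgeR) and did not pass. The counts do not show whether these transcripts encode a working protein.

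Polymerase theta joins ends by short homologies when the classical route is not used. Of 6 genes of this route, none passed, with 0 at an unadjusted p under 0.05 in edgeR and 0 at an adjusted p under 0.05 with DESeq2 or limma voom. POLQ, the polymerase itself, had the largest positive log2 fold change, 0.080 (SE 0.046, adjusted p = 0.436, edgeR), with overlapping groups. FEN1, a flap nuclease, had the largest negative one, -0.035 (SE 0.037, adjusted p = 0.738, edgeR). Its Olaparib samples all lay below its DMSO samples, as for 9.29% of all genes tested.

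**Figure D4:**
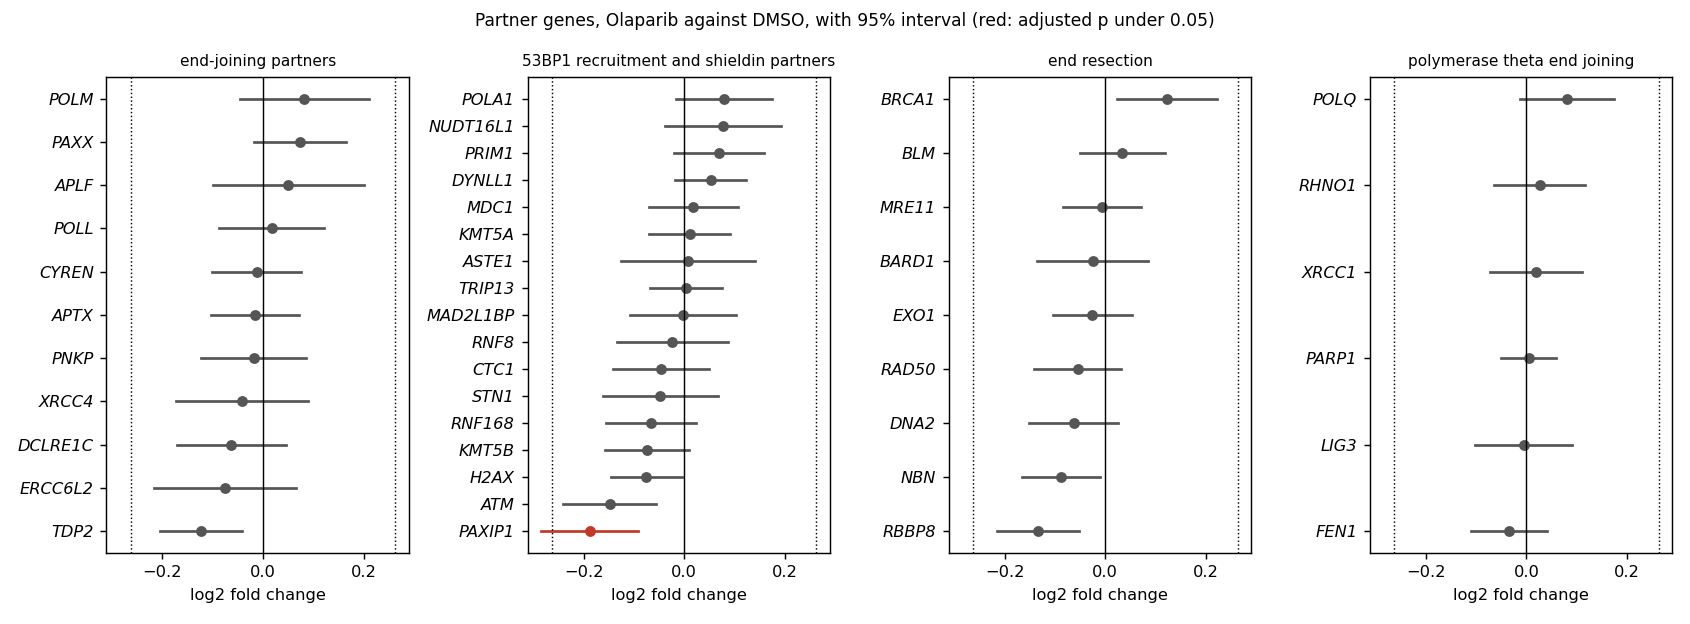
Log2 fold change of Olaparib against DMSO (horizontal axis) for the 43 partner genes tested, in 4 panels by list, with bars for the 95% interval and dotted lines at 1.2-fold either way. PAXIP1 is the one gene drawn in red, for an adjusted p under 0.05, and it lies at -0.19.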

How the data were processed

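Poly(A) RNA of UWB1.289 cells was sequenced in 3 Olaparib and 3 DMSO samples. According to the methods of the study, reads were trimmed with Trimmomatic and mapped to GRCh38 with STAR, duplicates were identified with Picard, and reads were assigned with featureCounts. Whether duplicates were removed is not given in the sources used here. The authors deposited raw counts, whole numbers for each gene identifier.

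Genes with more than 10 counts in total were kept and normalized with TMM. Groups were compared with the quasi-likelihood test of edgeR 4.0.16 (R 4.3.3) and Benjamini-Hochberg adjustment over all 21729 genes. The edgeR test gives no standard error. Each SE was calculated as the size of the log2 fold change over the square root of the test's F statistic. Intervals are 95%, from this SE and a t quantile. Like floors of 3 counts, they do not cover errors shared by all samples. Alternatives were DESeq2 1.42.0, limma voom 3.58.1, RLE size factors, other filters, a replicate block, another length and leaving out each sample. Names, exons and lengths came from GENCODE 44, which held 81.9% of the identifiers. Cell cycle lists came from Seurat 5.3.0. The test was tried on simulated counts.

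Per the labels, 3 dishes were treated per condition. They were seeded separately, and the methods of the study call the replicates independent. Which dish gave which RNA sample is not stated in those methods. P-values measure the spread between these samples of one cell line. Pairs of replicates differed by more than sampling noise (chi-square over its degrees of freedom 1.81 to 4.11). That spread cannot tell whether the samples came from separate dishes. Each sample was counted separately.

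Members and lists were chosen with earlier results of these data known. Named genes were the 10 members, partner genes with an adjusted p under 0.05, the 2 largest changes of each partner list with a mean of at least 20 counts, and genes that overlap or copy a member.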

Additional observations from a re-analysis of the deposited data

How the results depend on the processing

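Of the 10 members, 1 passed an adjusted p of 0.05 with DESeq2, limma voom, RLE size factors, both other filters and the replicate block, and 0 to 1 passed with 1 sample left out, where DMSO replicate 3 decided the call. The log2 fold change of PRKDC lay between 0.11 and 0.18 with 1 sample left out. That of TP53BP1 lay between -0.011 and 0.065 and that of XRCC5 between -0.036 and 0.0035, and both took the other sign without DMSO replicate 3 (-0.011 and 0.0035). The other members kept their sign under all 12 alternatives. Of the partner genes, 2 passed with limma voom (PAXIP1 and RBBP8), 2 with edgeR's filterByExpr (PAXIP1 and ATM), 4 with the replicate block (ATM, PAXIP1, RBBP8 and TDP2) and 0 to 1 with 1 sample left out. It was 0 without Olaparib replicate 3, DMSO replicate 1 or DMSO replicate 3, and the 1 gene was ATM without DMSO replicate 2. The cause was not tested. With the representative transcript length, mean DMSO levels in CPM per kilobase were 195.6 for XRCC6, 117.9 for XRCC5, 47.1 for PRKDC, 37.7 for MAD2L2, 10.4 for RIF1, 5.53 for SHLD2, 4.84 for TP53BP1, 3.52 for LIG4, 2.47 for SHLD1 and 1.32 for SHLD3. The replicate block raised the number of genes called among all genes from 730 to 1322 and changed no call among the members. Samples with the same number did not deviate together (correlations of -0.15, 0.19 and -0.21 over 13121 genes), so the numbers were not taken as pairs. Not every sample correlated best with its own number. At 60 to 91 counts per sample, a change of SHLD3 within 1.2-fold was not detectable.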

Other observations

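PRKDC and MCM4, which encodes a subunit of the replicative helicase, are transcribed in opposite directions on chromosome 8 (GRCh38). Their annotated gene boundaries lie 7 bases apart, taken from the outermost ends of each gene. The start sites used in these cells, and the distance between them, were not tested. MCM4 was looked at after the values of PRKDC had been seen. It had normalized counts of 10924, 10879.7 and 10835 with Olaparib and of 11151, 11229.7 and 11189 with DMSO. The 3 Olaparib samples lay below the 3 DMSO samples, where PRKDC lay above. For MCM4 the log2 fold change was -0.041 (SE 0.027, adjusted p = 0.538, edgeR). The within-sample log2 ratio of PRKDC to MCM4 counts was 1.28 ± 0.059 after Olaparib and 1.08 ± 0.067 after DMSO (SD, n = 3 each). The difference was 0.19. With PRKDC wholly above and MCM4 wholly below, the groups had to separate in this ratio. A two-sided exact permutation test could only give p = 0.1, the smallest that 3 against 3 allow, so it adds no support. With 1 sample left out the difference lay between 0.15 and 0.22.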
